A study of Mus musculus with 17 samples.

Results

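The comparison described here is bsg against wild type (WT) in the hearts of XY mice, 8 libraries of the 17 in the series. The labels' genotype and sex fields mark 3 of them as WT males and 5 as bsg males. The autosomal genes (chromosomes 1 to 19) of these 8 libraries were fitted alone, and the fit was repeated without WT male replicate 2, a library that lies apart from the others. All mice were 4 months old, and C57BL/6 is given as the background strain of both groups. Apart from isoflurane at collection the labels name no agent in either group, and whole hearts were flash frozen. The labels do not expand the genotype name bsg, do not give its allele, and do not say whether the WT mice were littermates. The middle number of a title, called the title number below, never occurs in both genotypes. Whatever the title numbers mark thus cannot be told apart from genotype. WT male replicates 2 and 3 share 1 such number, and so do bsg male replicates 1 to 3. The design text calls the samples biological replicates, in groups of 3 to 4.

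The series title places these mice in a study of why males with a genetic cardiomyopathy are prone to injury of the heart muscle under load, with antioxidant defence as its theme. In an inherited cardiomyopathy a defect in a protein of the muscle cell weakens the heart wall over time, and fibre loss, scar and an altered gene programme usually follow. Antioxidant enzymes remove the reactive oxygen species that working mitochondria give off. Genes that lie close together on a chromosome tend to be inherited together, which is why the position of changed genes is read beside their size. Whether shared inheritance has a part in the calls here was not tested. The table of counts carries gene IDs and coordinates of the assembly C57BL_6NJ_v1 with no gene names, so the antioxidant genes, the gene behind the bsg label and the markers of heart muscle and other cell types could not be picked out. In whole-heart RNA, fewer cells of a type and less RNA per cell cannot be told apart.

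The 8 libraries held 13886399 to 17066718 assigned fragments, and 17934 to 18748 autosomal genes had at least 1 count in a library. The 10 most abundant genes took 11.5% to 12.5% of each. By exact permutation tests, two-sided over 56 arrangements, the groups were not shown to differ in total (p = 0.786), genes detected (p = 0.589) or the share of the top 10 (p = 0.857). The smallest p these tests allow is 0.0179. Of the 13918 autosomal genes tested, a gene was called where edgeR's adjusted p (Benjamini-Hochberg, over all tested genes) was under 0.05.

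WT male replicate 2 stood apart before any gene was tested. The root-mean-square difference in log2 CPM (counts scaled to the library total) between WT replicates 1 and 3 was 0.362. WT replicate 2 differed by 0.550 on average from the other WT hearts and by 0.514 from the bsg hearts, and its nearest library was bsg replicate 1, at 0.440. It had 89 genes at least 2-fold above all 7 other libraries, against 0 to 21 in each of the others. Genes at least 2-fold below all others were 13 in this library and 3 to 23 in the rest. It was thus marked by many genes high in it alone, and not by an excess of low ones.

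Principal components placed variation between libraries ahead of genotype, with or without WT replicate 2. The first component of all tested genes took 39.2% of the variance and mixed the groups, with scores of 13.1, -35.9 and 24.9 in the WT hearts and -19.3, 19.5, 22.9, -26.0 and 0.66 in the bsg hearts, each in replicate order. The 3 libraries with clearly negative scores were also the 3 with the most genes detected, 18515 to 18748 against at most 18381 in the others, and the part of this in the component was not tested. The second component (19.1%) separated the genotypes, with 13.97 to 23.7 in WT and -14.4 to -10.6 in bsg.

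**Figure D1:**
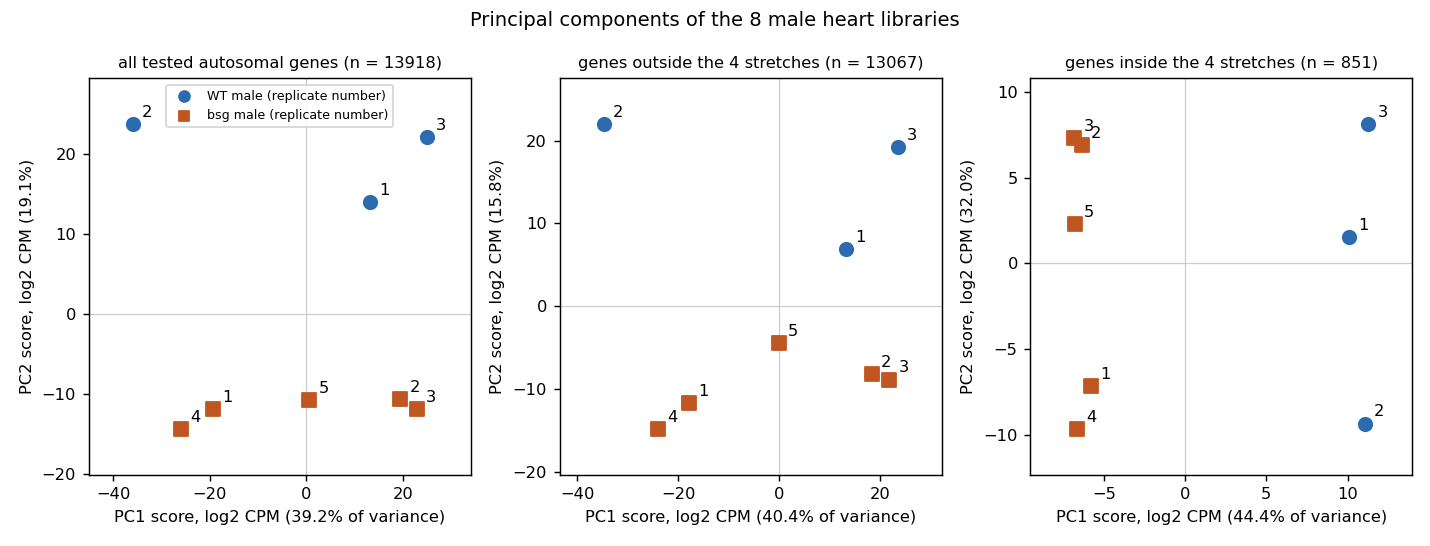
Scores on the first (x axis) and second (y axis) principal component of log2 CPM for 3 WT hearts (blue circles) and 5 bsg hearts (orange squares), numbered by replicate, from all tested genes, from genes outside and from genes inside the 4 chromosome stretches. Genotype separates on the second component in the left and middle panels and on the first in the right panel, where WT lies at 10.1 to 11.3 and bsg at -6.82 to -5.82.

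Of the 13918 genes, 148 were called (1.06%), 81 higher and 67 lower in bsg. Most of these differences were small. The median fold of a called gene was 1.46 in either direction, 77 of the 148 differed by under 1.5-fold, and 39 (0.28% of tested genes) by at least 2-fold, 17 higher and 22 lower. An unadjusted p under 0.05 was reached by 1986 genes, 14.3% of those tested. The smallest fold that was called was 1.18, and the median standard error (SE) of a log2 fold change over all tested genes was 0.0954.

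The size of a called difference moved with level. The 22 calls under 1.25-fold had a median level of 6.23 log2 CPM, the 55 between 1.25- and 1.5-fold one of 5.40, and the 32 between 1.5- and 2-fold one of 4.54. The 22 calls between 2- and 4-fold had a median of 2.84 log2 CPM and the 17 of 4-fold or more one of 2.71. Small differences were therefore called in abundant genes, and large ones lay mostly in genes of low or middling level. Only called genes enter these bands, and a gene of low count has to differ more to be called. The relation is thus partly set by the threshold and is not shown to be a trait of the genotype difference. Calls under 1.25-fold were mostly higher in bsg (16 of 22), and calls of 4-fold or more were 7 higher and 10 lower.

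**Figure D2:**
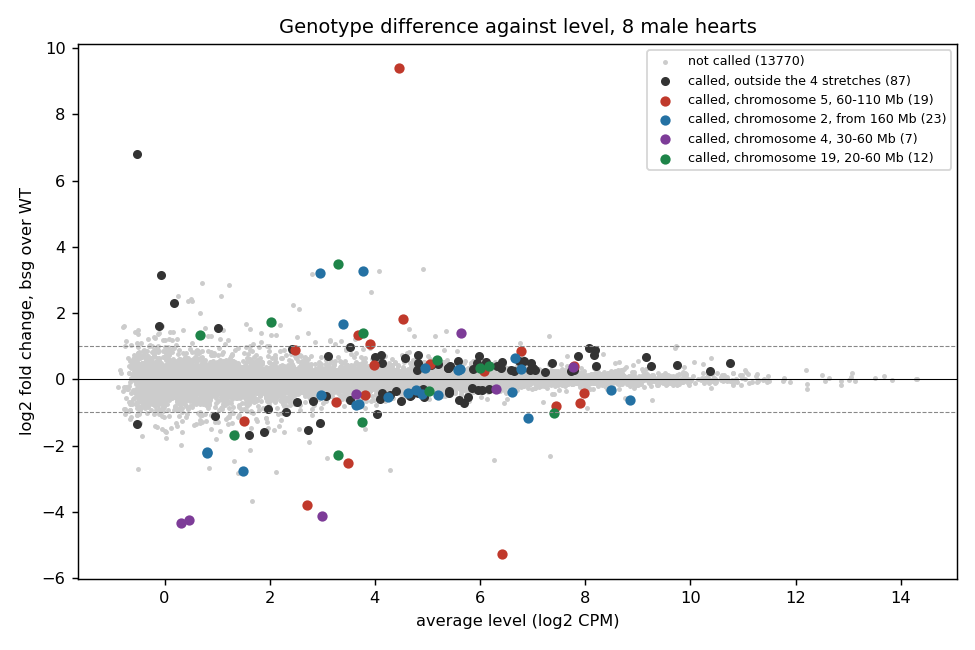
Log2 fold change of bsg over WT (y axis) against average level in log2 CPM (x axis) for every tested autosomal gene, grey where not called, black where called outside the 4 stretches and coloured by stretch where called inside. Dashed lines mark a 2-fold difference, which 39 of the 148 called genes passed, 27 of them coloured.

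The position of the calls was read against 4 stretches: chromosome 5 from 60 to 110 Mb, chromosome 2 from 160 Mb to its end, chromosome 4 from 30 to 60 Mb and chromosome 19 from 20 to 60 Mb, with a gene placed by its start. These stretches were proposed after calls in this series had been seen, partly in these same libraries, so the counts inside and outside them are a description and carry no test. Inside lay 851 tested genes, 6.11% of the total, and 61 of them were called (7.17%), 27 higher and 34 lower. Outside lay 13067 tested genes with 87 calls (0.666%), 54 higher and 33 lower. The stretches thus held 41.2% of all calls. This share moved with the analysis. With libraries that share a title number summed, 42 genes were called, 28 inside and 14 outside, so that 66.7% lay inside, and by DESeq2 446 were called, 101 inside and 345 outside, so that 22.6% did. With the 148 calls the share inside rose with size, from 31.2% of the calls under 2-fold to 69.2% of those of at least 2-fold and 14 of the 17 of at least 4-fold.

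Called genes inside the stretches differed more than those outside, with a median of 1.70-fold against 1.42-fold, and were less abundant, at 4.45 against 5.40 log2 CPM. Tested genes as a whole did not show that gap in level, with medians of 4.34 inside and 4.27 outside. Their median SE was also alike, 0.0947 inside and 0.0954 outside, while the median absolute log2 fold change of tested genes was 0.14 inside and 0.10 outside. An unadjusted p under 0.05 was reached by 25.9% of tested genes inside and 13.5% outside.

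By stretch, chromosome 5 had 19 calls among 172 tested genes (11%), 10 higher and 9 lower, 8 of them at least 2-fold. Chromosome 2 had 23 of 293 (7.85%), 8 higher and 15 lower, with 7 of at least 2-fold. Chromosome 4 had 7 of 166 (4.22%), 2 higher and 5 lower, with 4 of at least 2-fold. Chromosome 19 had 12 of 220 (5.45%), 7 higher and 5 lower, with 8 of at least 2-fold. Both directions occurred in every stretch, and the median log2 fold change of all tested genes in a stretch lay between -0.03 and 0.01, so no stretch was shifted as a whole.

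Outside the stretches, calls were spread over all 19 autosomes. The share of tested genes called there ran from 0.155% on chromosome 17 (1 of 644) to 1.04% on chromosome 10 (7 of 675), and chromosome 7 had the most calls, 11 of 1082. The remainders of the 4 chromosomes lay within that range: 0.69% on chromosome 2, 0.675% on chromosome 4, 0.389% on chromosome 5 and 0.382% on chromosome 19.

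The calls did not fill the stretches evenly. On chromosome 2, 0 of 114 tested genes were called between 160 and 170 Mb, 15 of 97 between 170 and 180 Mb (15.5%), 6 of 33 between 180 and 190 Mb (18.2%) and 2 of 49 beyond. The first call there starts at 173.9 Mb and the last at 190.2 Mb. On chromosome 5 the calls run from 66.1 to 103.4 Mb, with 10% to 15.4% called in 3 of the 5 windows of 10 Mb. In the windows from 80 to 90 and from 100 to 110 Mb the shares were 7.14% and 6.98%. On chromosome 4 they run from 31.7 to 49.8 Mb, and on chromosome 19 from 28.1 to 54.3 Mb with a gap of 11.2 Mb between neighbouring calls.

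The edges of the stretches differed in how sharp they were. Below 60 Mb no gene of chromosome 5 was called. Just past the upper edge of that stretch, 0.0733 Mb beyond 110 Mb, a gene starting at 110073259 was higher in bsg (log2 fold change 0.67, SE 0.06, adjusted p = 0.00027), and it was also called in XX hearts (0.72, adjusted p = 0.00689, both by edgeR). On chromosome 2 the nearest call below the stretch lay 31.5 Mb away, at 128540123, with a log2 fold change of 0.71 (adjusted p = 0.000309). Its value in XX hearts was 0.07 (adjusted p = 0.911), which did not pass. On chromosome 4 the nearest call outside lay 8.20 Mb past the upper edge, and on chromosome 19 it lay 18.95 Mb below the lower one.

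**Figure D3:**
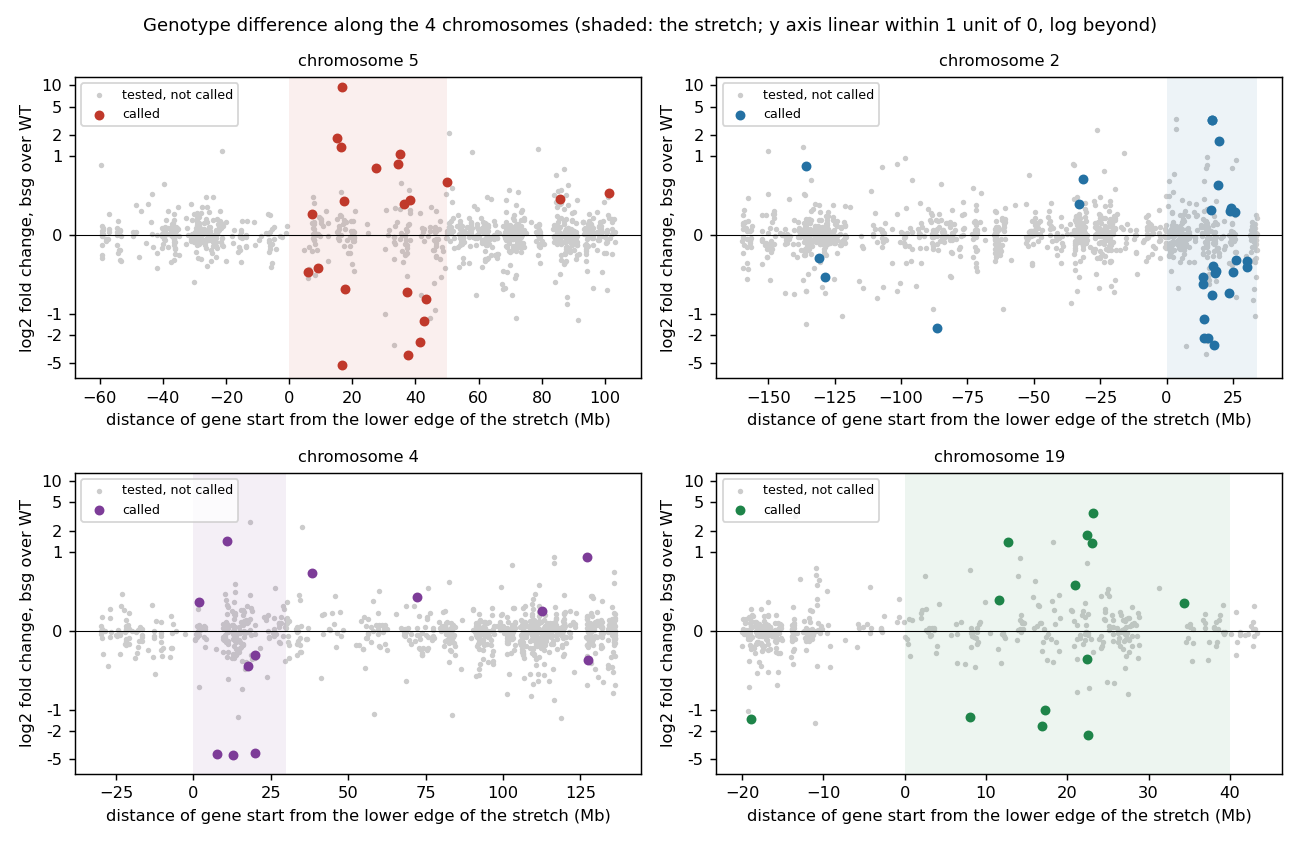
Log2 fold change of bsg over WT (y axis, linear within 1 unit of 0 and logarithmic beyond) against the distance of a gene's start from the lower edge of the stretch in Mb (x axis) on the 4 chromosomes, grey where tested and not called and coloured where called, with the stretch shaded. The called genes number 19, 23, 7 and 12 in the shaded parts of chromosomes 5, 2, 4 and 19, and on chromosome 2 none lies in the first 10 Mb of the stretch.

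Some called genes were direct neighbours among the tested genes. There were 11 runs of consecutive called genes, 10 of them inside the stretches with 24 genes and 1 outside, a pair on chromosome 1 that was higher by 0.29 and 0.31 on the log2 scale. The longest runs, of 4 genes each, were on chromosome 2. From 173882206 to 174017308, a span of 135 kb, all 4 genes were lower in bsg, by log2 fold changes from -2.22 to -0.53. From 176682200 to 177387951, 3 genes were higher and 1 was lower, all on the same strand, with log2 fold changes from -0.76 to 3.28. In 7 of the 11 runs all genes moved one way, but most runs were pairs, in which this arises easily by chance. Neighbours among the tested genes need not be close, and 1 pair on chromosome 5 spanned 3126 kb.

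Among called genes of at least 1 log2 CPM, the largest rise and the largest fall of the comparison were in a pair of neighbours on the minus strand of chromosome 5. The gene at 76655452 to 76681655 had 1, 1 and 0 counts in the WT hearts and 547, 577, 548, 584 and 422 in the bsg hearts. It was at or close to 0 in every WT heart and present in every bsg heart. The ratio of bsg to WT was 800, with an exact Poisson 95% interval of 221 to 6609 that covers counting error only, and the adjusted p was 1.23e-08 by edgeR. The gene at 76681878 to 76696974 stood at 231.6, 206.1 and 212.7 CPM in WT and at 6.21, 5.24, 6.23, 5.16 and 4.77 CPM in bsg. The groups lay far apart, and the fall of 39.1-fold (log2 fold change -5.29, SE 0.08, adjusted p = 2.66e-10, edgeR) had the smallest SE of the 17 calls of 4-fold or more. Counting used strand, but reads that run from one of these genes into the other would lie on the same strand. Whether such reads occur was not tested.

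On chromosome 2 the largest rise was in a gene of 1 exon at 177159089 to 177159584. Its levels were 1.70, 1.72 and 2.81 CPM in WT and 18.4, 22.3, 21.2, 23.1 and 17.4 CPM in bsg, and the groups did not overlap. This was 9.74-fold (log2 fold change 3.28, SE 0.18, adjusted p = 1.27e-05, edgeR). The next gene on the same strand, at 177160917 to 177164406, rose by a like amount, from 1.22 ± 0.417 CPM (SD, n = 3) to 11.5 ± 1.62 CPM (SD, n = 5), or 3.21 on the log2 scale (SE 0.22). The largest fall was at 177928599 to 177934512, at 5.10, 5.64 and 6.46 CPM in WT and 0.716, 0.958, 0.835, 1.03 and 0.671 CPM in bsg. Every bsg heart lay below every WT heart, and the log2 fold change was -2.75 (SE 0.19, adjusted p = 3.78e-05, edgeR). At 173976328 and 175593063, 2 genes of the minus strand fell by 2.22 and 2.20 on the log2 scale, from 3.20 ± 0.424 and 3.16 ± 0.306 CPM in WT (SD, n = 3).

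On chromosome 4 all 3 calls of 4-fold or more were falls. The largest by the rule for named genes was at 49747444 to 49762423, with 13.2, 18.98 and 24.7 CPM in WT and 1.31, 1.21, 0.771, 1.48 and 0.596 CPM in bsg. The WT hearts were uneven among themselves and still all above the bsg hearts, and the log2 fold change was -4.12 (SE 0.26, adjusted p = 2.54e-05, edgeR). A pair of less abundant genes fell as far, one at 37751478 with 142 counts over the 3 WT hearts and 12 over the 5 bsg hearts, the other at 42661789 with 127 and 10. Their log2 fold changes were -4.23 and -4.33. The largest rise was moderate, at 40904245 to 40911717, from 24.0, 24.0 and 24.8 CPM in WT to 55.6, 70.0, 62.9, 70.6 and 64.3 CPM in bsg. The WT hearts were nearly equal, and the rise of 2.66-fold had an adjusted p of 1.63e-05 by edgeR.

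On chromosome 19 the gene at 43154332 to 43181246 (minus strand, 16 exons) stood at 1.09, 1.44 and 1.38 CPM in WT and at 13.8, 14.2, 14.2, 14.6 and 17.3 CPM in bsg. The groups were well apart, with bsg replicate 5 the highest, and the log2 fold change was 3.50 (SE 0.14, adjusted p = 6.15e-07, edgeR). The largest fall, at 42585758 to 42590050, was the least certain of the named genes inside the stretches. Its WT levels were 32.5, 7.77 and 18.2 CPM and its bsg levels 5.91, 4.41, 3.92, 3.29 and 2.16 CPM. WT replicate 2 lay closer to the bsg hearts than to the other WT hearts, although the groups did not overlap. The log2 fold change was -2.29 (SE 0.40, adjusted p = 0.0322), and without WT replicate 2 it was -2.67 (SE 0.28, adjusted p = 0.00181, both by edgeR). The call was lost in 10 of 18 alternative analyses, among them those without WT replicate 1 (adjusted p = 0.0889) or 3 (adjusted p = 0.113).

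Chromosome 5 held 2 further calls of 4-fold or more. The gene at 97507030 to 97510563 fell from 15.3 ± 0.768 CPM (SD, n = 3) to 1.09 ± 0.437 CPM (SD, n = 5), which is -3.80 on the log2 scale (SE 0.24). The gene at 101353349 to 101357466 was the single called gene of the 148 whose groups overlapped. It stood at 5.85, 26.5 and 36.5 CPM in WT and at 4.53, 2.04, 6.43, 4.00 and 3.06 CPM in bsg, so that WT replicate 1 lay below bsg replicate 3. Its log2 fold change was -2.51 (SE 0.49, adjusted p = 0.0457), and the call was lost without WT replicate 2 (adjusted p = 0.0948). In XX hearts its value was 1.78 with an adjusted p of 0.546.

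Outside the stretches the largest rises and falls among genes of at least 1 log2 CPM lay close to the threshold of the test. MGP_C57BL6NJ_G0034212, on chromosome 8 at 73587830 to 73590893, had 0.680, 1.17 and 0.718 CPM in WT and 2.21, 2.49, 1.61, 3.29 and 2.98 CPM in bsg. The groups did not overlap, with WT replicate 2 the highest of WT and bsg replicate 3 the lowest of bsg. Its log2 fold change was 1.55 (SE 0.31, adjusted p = 0.0466, edgeR). MGP_C57BL6NJ_G0033687, on chromosome 7 at 151319958 to 151321180, rose from 6.19, 7.77 and 7.24 CPM to 11.6, 12.7, 12.3, 13.9 and 19.2 CPM. Every bsg heart was above every WT heart and bsg replicate 5 was the highest, and the log2 fold change came to 0.97 (SE 0.17, adjusted p = 0.0322, edgeR).

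The largest fall outside was MGP_C57BL6NJ_G0035229 on chromosome 9, at 45160825 to 45189154, with 4.76, 3.71 and 6.70 CPM in WT and 0.716, 1.85, 1.99, 2.06 and 1.34 CPM in bsg. The groups were apart, and the log2 fold change was -1.67 (SE 0.31, adjusted p = 0.0394, edgeR). MGP_C57BL6NJ_G0026238, on chromosome 2 at 73339666 to 73370146, which lies well below the stretch of that chromosome, stood at 4.70, 5.29 and 8.32 CPM in WT and at 1.25, 1.28, 2.57, 2.13 and 2.91 CPM in bsg. Here too the groups did not overlap, and the log2 fold change was -1.60 (SE 0.30, adjusted p = 0.0414, edgeR). Of these 4 genes, only MGP_C57BL6NJ_G0035229 was still called without WT replicate 2 (adjusted p = 0.0389). The others had adjusted p of 0.0548, 0.0592 and 0.0594, in the order given. In all, the 2 rises lost their call in 12 and 7 and the 2 falls in 7 and 9 of 18 alternative analyses, and none changed direction.

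**Figure D4:**
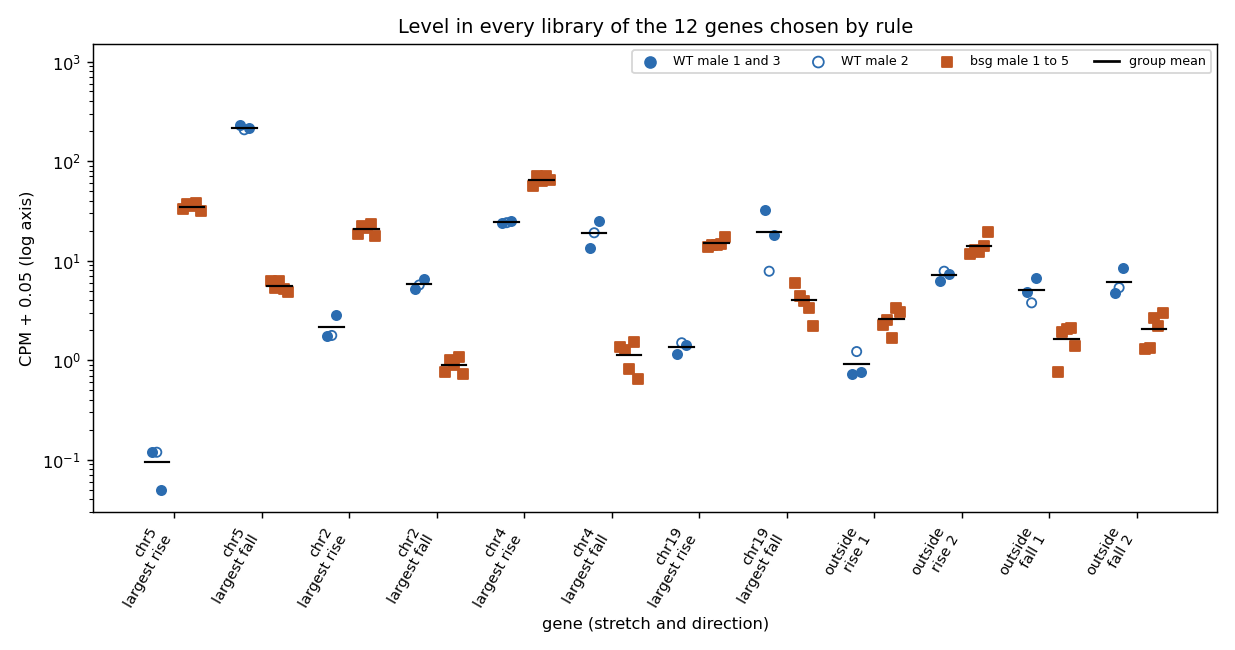
CPM plus 0.05 on a log axis (y axis) in each of the 8 libraries for the 12 genes chosen by rule (x axis), with WT hearts as blue circles (WT replicate 2 open), bsg hearts as orange squares and group means as black lines. Groups are apart in all 12, widest for the chromosome 5 pair (206.1 to 231.6 CPM in WT against 4.77 to 6.23 CPM in bsg for the fall) and narrowest for the fall on chromosome 19, where the nearest hearts of the groups had 7.77 and 5.91 CPM.

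The 3 calls of 4-fold or more outside the stretches were all genes below 1 log2 CPM on average, chosen here after their values were seen. A gene of 1 exon on chromosome 6 at 36672169 had 0 counts over the 3 WT hearts and 69 over the 5 bsg hearts. The exact Poisson 95% interval of the ratio of bsg to WT, which covers counting error only, had a lower limit of 10.9 and no upper limit. Another gene of 1 exon on that chromosome, at 46975506, had 6 counts in WT and 95 in bsg (log2 fold change 3.16, adjusted p = 0.0206, edgeR). Both were called in XX hearts as well, with adjusted p of 0.00732 and 0.0471. The third, on chromosome 13 at 93574423, had 13 counts in WT and 111 in bsg (log2 fold change 2.31, adjusted p = 0.0344), lost its call without WT replicate 2 (adjusted p = 0.0977) and had a log2 fold change of -0.41 in XX hearts (adjusted p = 0.605).

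The separation of single libraries was wider than the list of calls. In 1418 tested genes (10.2%) the ranges of the 5 bsg and the 3 WT hearts did not overlap, with bsg above in 738 and below in 680, and 1271 of these genes were not called. Inside the stretches 169 of 851 genes were apart in this way (19.9%), and outside 1249 of 13067 (9.56%). With only 56 arrangements of the libraries, the ranges of some genes lie apart by chance alone. The share of genes to expect from chance was not worked out. The 1271 uncalled genes are thus not shown to differ by genotype. Of the 148 called genes 147 were apart, a description only, since the same values made the call. The gap of called genes, the log2 distance between the nearest bsg and WT hearts, had a median of 0.46 inside and 0.25 outside. A gap of at least 2-fold was found in 24 genes, 20 inside and 4 outside.

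Whole libraries were also compared on each set of genes, which is no separate evidence on the stretches, since they were proposed from calls seen there. On the 851 genes inside the stretches the first component (44.4% of variance) had WT at 10.1 to 11.3 and bsg at -6.82 to -5.82. On that component WT replicate 2 lay among the other WT hearts. On the second (32.0%) it was at -9.34, against 1.52 and 8.12 in the other WT hearts and -9.66 to 7.31 in bsg. With the 61 called genes left out, the first component of the remaining 790 genes (49.7%) mixed the groups again. The second (16.6%) had WT at 2.01 to 7.76 and bsg at -4.62 to -1.25. On the 13067 genes outside, the second component (15.8%) had WT at 6.85 to 21.99 and bsg at -14.9 to -4.43. With the 87 called genes left out it (14.996%) had WT at 3.25 to 21.8 and bsg at -16.2 to -0.02. Which WT heart lay nearest to the bsg hearts also differed: it was replicate 2 in 44.3% of the calls inside, replicate 1 in 51.7% of the calls outside, and replicate 1 in 38.6% of all tested genes.

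Without WT male replicate 2 the fit tested 14109 genes and called 95 (0.673%), 49 higher and 46 lower. Fewer genes were called although the remaining libraries were more alike, the biological coefficient of variation being 11.7% against 13.9% with all 8. This fit had 2 WT hearts. Inside the stretches 45 of 863 genes were called (5.21%) and outside 50 of 13246 (0.377%), so that 47.4% of the calls lay inside. At least 2-fold differences made up 35 of the 95. The smallest fold called was 1.23, and 1 gene was called under 1.25-fold where 22 had been with 8 libraries.

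The 2 fits shared 76 genes, 51.4% of the 148 and 80% of the 95. Inside the stretches 42 calls were shared, 68.9% of the 61 and 93.3% of the 45. Outside 34 were shared, 39.1% of the 87 and 68% of the 50. The 72 genes that lost their call had adjusted p up to 0.141, and none of the 148 changed direction. The median absolute log2 fold change over the 148 genes was 0.55 with and 0.56 without this library, and no gene moved by more than 0.53. Of the 39 genes of at least 2-fold, 29 were still called, 23 of 27 inside and 6 of 12 outside. Ranges that did not overlap became more frequent, 2629 genes (18.6%). Of themselves, 2 WT hearts are more easily apart from 5 than 3 are, and the library lying apart was also gone. The parts of these in the rise cannot be told apart. The rise is thus not shown to be a clearer separation of the genotypes.

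**Figure D5:**
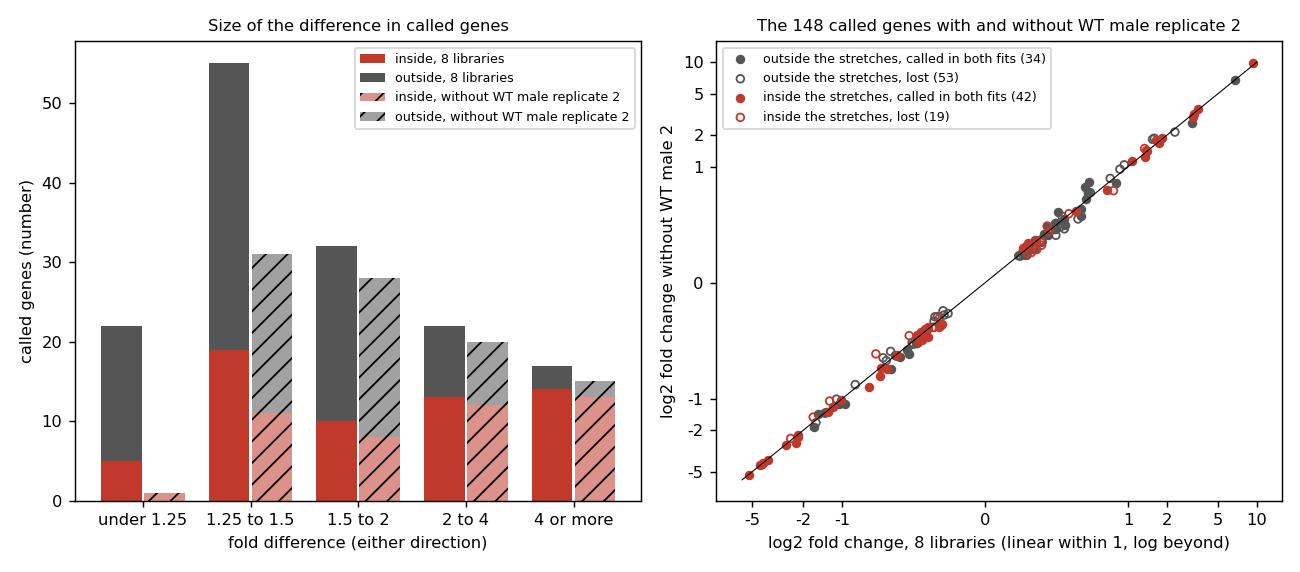
Left, number of called genes (y axis) by fold difference (x axis), stacked into genes inside (red) and outside (grey) the 4 stretches, for all 8 libraries (plain bars) and without WT male replicate 2 (hatched). Right, log2 fold change of the 148 called genes with 8 libraries (x axis) and without that library (y axis), filled where called in both fits (42 inside, 34 outside) and open where lost (19 and 53), with the line of equality: all 148 genes keep their side of 0.

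Leaving out any other library also cut the list. The fits without 1 library called 51 to 103 genes, 33 to 45 inside and 18 to 59 outside. The lowest count came without WT replicate 3 (51 calls, 47 of them among the 148) and not without WT replicate 2. Without WT replicate 1 there were 80 calls. In all 9 fits 41 genes were called, 31 inside and 10 outside, of which 21 and 3 differed by at least 2-fold.

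The XX hearts of the series, 4 WT and 5 bsg, share no library with the XY hearts, and when fitted alone they gave 106 calls among 13898 genes (0.763%). The stretches were proposed with these calls in view too. All 148 genes called in XY hearts were tested there, and 140 had the same sign. Inside the stretches the sign was the same for 60 of 61, and 32 were called in both sexes, 52.5% of the XY calls and 76.2% of the 42 XX calls there. Outside it was the same for 80 of 87, with 10 called in both, 11.5% of the XY and 15.6% of the 64 XX calls. No share of like signs over all tested genes is given here, so these counts are not shown to be particular to called genes. The median absolute log2 fold change of the XY calls was 0.76 in XY and 0.69 in XX hearts inside, and 0.50 and 0.29 outside. These genes were picked by their XY values, which favours larger sizes in XY hearts. The smaller XX medians are thus not shown to be a weaker difference.

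A test of the difference itself, the interaction of sex and genotype over all 17 libraries, called 0 of 14513 genes (0%) by edgeR. The smallest adjusted p was 0.659, and 749 genes had an unadjusted p under 0.05, among them 24 of the 148 XY calls. The smallest p was that of the chromosome 13 gene at 93574423 (unadjusted p = 4.54e-05). A call in XY and none in XX hearts is thus not shown to be a difference between the sexes for any gene named here.

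The called genes inside the stretches had a median of 8 exons and an exonic length of 3829 bp, and those outside 10 exons and 4237 bp, against 9 exons in tested genes of both places. The median exonic length of tested genes was 3727 bp inside and 3723 bp outside. Of the 61 inside, 37 were on the minus strand, as were 412 of the 851 tested there, and of the 87 outside 47 were, as were 6485 of the 13067 tested. Genes of 1 exon made up 1 of the 61, 3 of the 87 and 7.64% and 5.63% of the tested genes inside and outside.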

How the data were processed

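RNA of whole hearts was sequenced from stranded libraries after removal of ribosomal RNA, per the labels' protocols. The authors deposited raw counts of fragments per gene, made with featureCounts 1.6.2 from read pairs with both ends aligned, a mapping quality of at least 10, strand setting 2 and the Ensembl 109 annotation of C57BL_6NJ_v1, per the file headers. The submitters' processing notes name GRCm39, DESeq2 and Subread. The aligner is not given in the sources used here. Fragments that align to several places can fall under the quality minimum, which can lower genes with close copies. This was not tested. Of 41096 IDs, 0 matched the name tables of another assembly, so lists of symbols could not be applied and no sequence is shown.

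The 39032 autosomal rows of the 8 male libraries were filtered with filterByExpr (minimum count 10, minimum total 15), scaled by TMM and tested with the quasi-likelihood test of edgeR 4.0.16 under R 4.3.3, two-sided, with Benjamini-Hochberg adjustment. The SE is the size of a log2 fold change divided by the root of its F statistic, and can be too small near 0 counts. CPM are TMM-scaled, and log2 CPM for components and gaps have a prior count of 2. Data of 13918 genes were simulated, each library drawn independently, with 100 genes changed at each size. The changed genes were taken only from those above a set average count. Of these, 71% of 1.5-fold and 94% of 2-fold changes were recovered. Of 170 calls there, 5 were false. Whether these shares hold for genes of low count, with a library lying apart, or with libraries that share a title number, was not tested. Nothing beyond the design text says that the samples are separate animals, and no pair of libraries was identical.

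The comparison, the stretches and the gene rule were chosen with earlier results of these data known. The rule took, among called genes of at least 1 log2 CPM on average, the 2 largest rises and falls outside the stretches, the largest rise and fall in each stretch, and the calls nearest each edge. Alternatives were RLE and upper-quartile scaling, other filters on low counts, DESeq2 1.42.0, limma-voom (limma 3.58.1) with and without library weights, all 17 libraries, X-linked rows kept, each library left out, libraries summed by title number, an adjusted p under 0.01, and other edges of the stretches or gene midpoints.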

Additional observations from a re-analysis of the deposited data

Results flagged for a closer look

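Among 17 sets of 5 bsg hearts that were examined for a single heart far from the rest (per-gene levels and per-library measures), 1 stood out. In the gene with the largest rise on chromosome 19, at 43154332 to 43181246, bsg male replicate 5 had 17.3 CPM and the other 4 bsg hearts 13.8 to 14.6 CPM. Chance marks about 1 in 20 such sets, and all 5 hearts lay above the WT hearts.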

How the results depend on the processing

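DESeq2, which also differs in scaling and in the genes it tested (13203 against 13918), called 446 genes, 290 higher and 156 lower, 101 inside and 345 outside the stretches. With all 17 libraries in the fit there were 78 calls, 40 higher and 38 lower, 36 of them outside. With libraries summed by title number, which leaves 2 WT and 3 bsg samples, there were 42, 24 higher and 18 lower, 28 inside, 14 outside and 24 of at least 2-fold. An adjusted p under 0.01 left 45, 24 higher and 21 lower, 32 inside, 13 outside and 24 of at least 2-fold. The cause of these differences was not tested. Leaving out 1 library at a time gave 51 to 103 calls, 28 to 59 higher, 23 to 46 lower, 33 to 45 inside, 18 to 59 outside and 26 to 35 of at least 2-fold. Over the other alternatives (scaling, filters on low counts, limma-voom with and without weights, X-linked rows kept) the count was 141 to 182. The balance of directions was not stable: 54.7% of calls were higher in bsg, against 46.1% with upper-quartile scaling, where 65 were higher and 76 lower, and 65% by DESeq2. Stretch edges moved out by 10 Mb or in by 5 Mb gave 63 and 60 calls inside, and gene midpoints 61.

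Of the 12 genes chosen by rule, the 7 inside the stretches other than the fall on chromosome 19 were called in all 18 alternatives, and no log2 fold change of the 12 changed sign. The highest adjusted p over the alternatives was 0.113 for the fall on chromosome 19, 0.21 and 0.146 for the 2 rises outside, and 0.197 and 0.33 for the 2 falls outside. At this depth and with 3 WT hearts, differences under 1.18-fold were not called. No paired analysis was made because no title number occurs in both genotypes. Keeping X-linked rows added 478 tested genes, 3 of them called.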
